A study of Mus musculus with 12 samples.

Results

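The genes described here encode the machinery by which a nerve terminal stores and releases transmitter. They are 34 mouse genes named by symbol, matched to the Ensembl identifiers of 41388 genes in the count files, with the synaptotagmins left aside. They cover vesicle-associated phosphoproteins, vesicle membrane proteins, vesicular glutamate transporters, SNARE proteins, Rab3 proteins, complexins, Doc2 proteins and active zone proteins. Each of the 34 passed the filter on low counts and was tested, along with 14707 genes in all.

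RNA was measured in cultures of primary cortical neurons of Swiss Webster mice, prepared at embryonic day 16 and depleted of ribosomal RNA before sequencing. By its title the study addressed disturbed transcription in a neuron culture model of Huntington's disease. Htt-72Q libraries came from cultures that received lentivirus carrying exon 1 of Htt with 72 glutamines, the mutant form. Htt-25Q libraries came from cultures given exon 1 with 25 glutamines, the wild-type form, and control vector libraries from cultures given a lentivirus with no Htt sequence named. All 3 groups of 4 libraries were therefore infected, on day 5 in vitro, and harvested on day 10. The infection label of control vector 2 reads differently from that of the other 3 control libraries, and this library was placed by its title. The labels do not state the species of the exon 1 sequence, the promoter driving it or the share of cells infected. Whether the 4 libraries of a group came from separate cultures is not stated either, so the p-values measure the spread between these libraries, which may be in part technical.

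A synaptic vesicle is filled with transmitter, docks at the active zone, is primed and fuses when calcium enters the terminal. Fusion is driven by SNARE proteins on the vesicle and the plasma membrane, which zip together, while complexins and calcium sensors set the timing. Cortical excitatory neurons load glutamate mainly with vGluT1, whereas vGluT2 is known chiefly from subcortical neurons and from early development.

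Library totals ran from 12439335 to 20040985 counts in Htt-72Q, from 18097932 to 27471442 counts in Htt-25Q and from 12668531 to 23357966 counts in control vector, and mitochondrial ribosomal RNA took 10.8% to 14.8% of them in Htt-72Q, 7.77% to 13.2% in Htt-25Q and 6.71% to 14.2% in control vector. Summed over 11 neuronal markers, levels lay at 5505 to 6407 CPM in Htt-72Q libraries, 6867 to 7520 CPM in Htt-25Q libraries and 7455 to 7539 CPM in control vector libraries, and 3 of the 11 fell in Htt-72Q against control vector. For 8 markers of excitatory cortical neurons the sums were 239 to 365 CPM in Htt-72Q libraries, 593 to 955 CPM in Htt-25Q libraries and 576 to 869 CPM in control vector libraries, with 6 of 8 lower against control vector and 8 of 8 lower against Htt-25Q. Inhibitory neuron markers summed to 113 to 175 CPM in Htt-72Q libraries, 191 to 323 CPM in Htt-25Q libraries and 226 to 302 CPM in control vector libraries, with 4 of 11 lower against control vector and 5 of 11 lower against Htt-25Q. Astrocyte markers were present as well, at 2563 to 3008 CPM in Htt-72Q libraries, 2492 to 3179 CPM in Htt-25Q libraries and 2773 to 3269 CPM in control vector libraries, and 0 of 10 were called in either Htt-72Q comparison. Microglial markers summed to at most 25.2 CPM in any library, with Tmem119 at 0 in every Htt-25Q and control vector library. Most of that highest sum was Aif1, which reached 24.2 CPM in an Htt-72Q library and was the only 1 of the 8 tested. Neural progenitor markers summed to 242 to 321 CPM in Htt-72Q libraries, all above the 226 to 236 CPM in control vector libraries, and to 203 to 265 CPM in Htt-25Q libraries. Of 5 tested, 0 were called against control vector and 1, Vim, was higher against Htt-25Q. Oligodendrocyte lineage markers summed to 586 to 685 CPM in Htt-72Q libraries, 553 to 679 CPM in Htt-25Q libraries and 596 to 762 CPM in control vector libraries. Of these 11, Mobp was lower against both groups and Mog against Htt-25Q. Of all tested genes, 13.7% were called lower against control vector and 13.4% against Htt-25Q, and 9.44% and 9.07% higher. The part of these marker levels and of the ribosomal RNA share in the results below was not tested, and in bulk samples fewer cells of a type and less RNA per cell cannot be told apart. Levels given for single genes are CPM, counts relative to library size, scaled by the trimmed mean of M-values (TMM), and tests are the edgeR quasi-likelihood test with Benjamini-Hochberg adjustment over all 14707 genes, called at an adjusted p under 0.05.

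In Htt-72Q neurons, 15 of the 34 genes were lower than in control vector neurons, and 0 were higher. Among all tested genes 13.7% were called lower and 9.44% higher. The 34 genes were chosen with earlier results of these data known. Their counts and medians beside those of all genes therefore describe the list and are not a test of it. The median log2 fold change of the 34 genes was -0.43, beside 0.03 for all tested genes. Below 0 lay 28 of the 34, beside 47.56% of all tested genes. Without control vector 1 the median of the 34 was -0.27. Against Htt-25Q, 12 of the 34 were lower and 0 higher, beside 13.4% and 9.07% of all tested genes, with a median of -0.28 beside 0.034. In that comparison 25 of the 34 lay below 0, beside 47.1% of all tested genes. All 4 Htt-72Q libraries lay below all 4 control libraries in 14 of the 34 genes, beside 13.6% of all tested genes, and above them in 0, beside 10.1%. Against Htt-25Q the counts were 12 below, beside 15.1%, and 0 above, beside 11.6%. By unadjusted p under 0.05, 18 genes differed from control vector, beside 35.4% of all tested genes, of which 1, the glutamate transporter Slc17a6, was higher. Against Htt-25Q 16 did, beside 34.1%, and 0 of them were higher. DESeq2 and limma voom also called 0 members higher in both comparisons. Blocking on the preparation number raised that to 1 in each, again Slc17a6.

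Between Htt-25Q and control vector neurons 0 of the 34 genes were called. This held for edgeR, DESeq2 and voom, and 0 members reached an unadjusted p under 0.05. Over all tested genes 0 were called and 0.877% had an unadjusted p under 0.05. In 0 of the 34 genes were the groups apart in either direction, beside 0.32% lower and 0.673% higher among all tested genes. The member fold changes ran from -0.47 to 0.17 on the log2 scale, with a median of -0.052 beside -0.002 for all tested genes. The comparisons with Htt-25Q and with control vector share the Htt-72Q libraries, and both are given for each gene below.

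**Figure D1:**
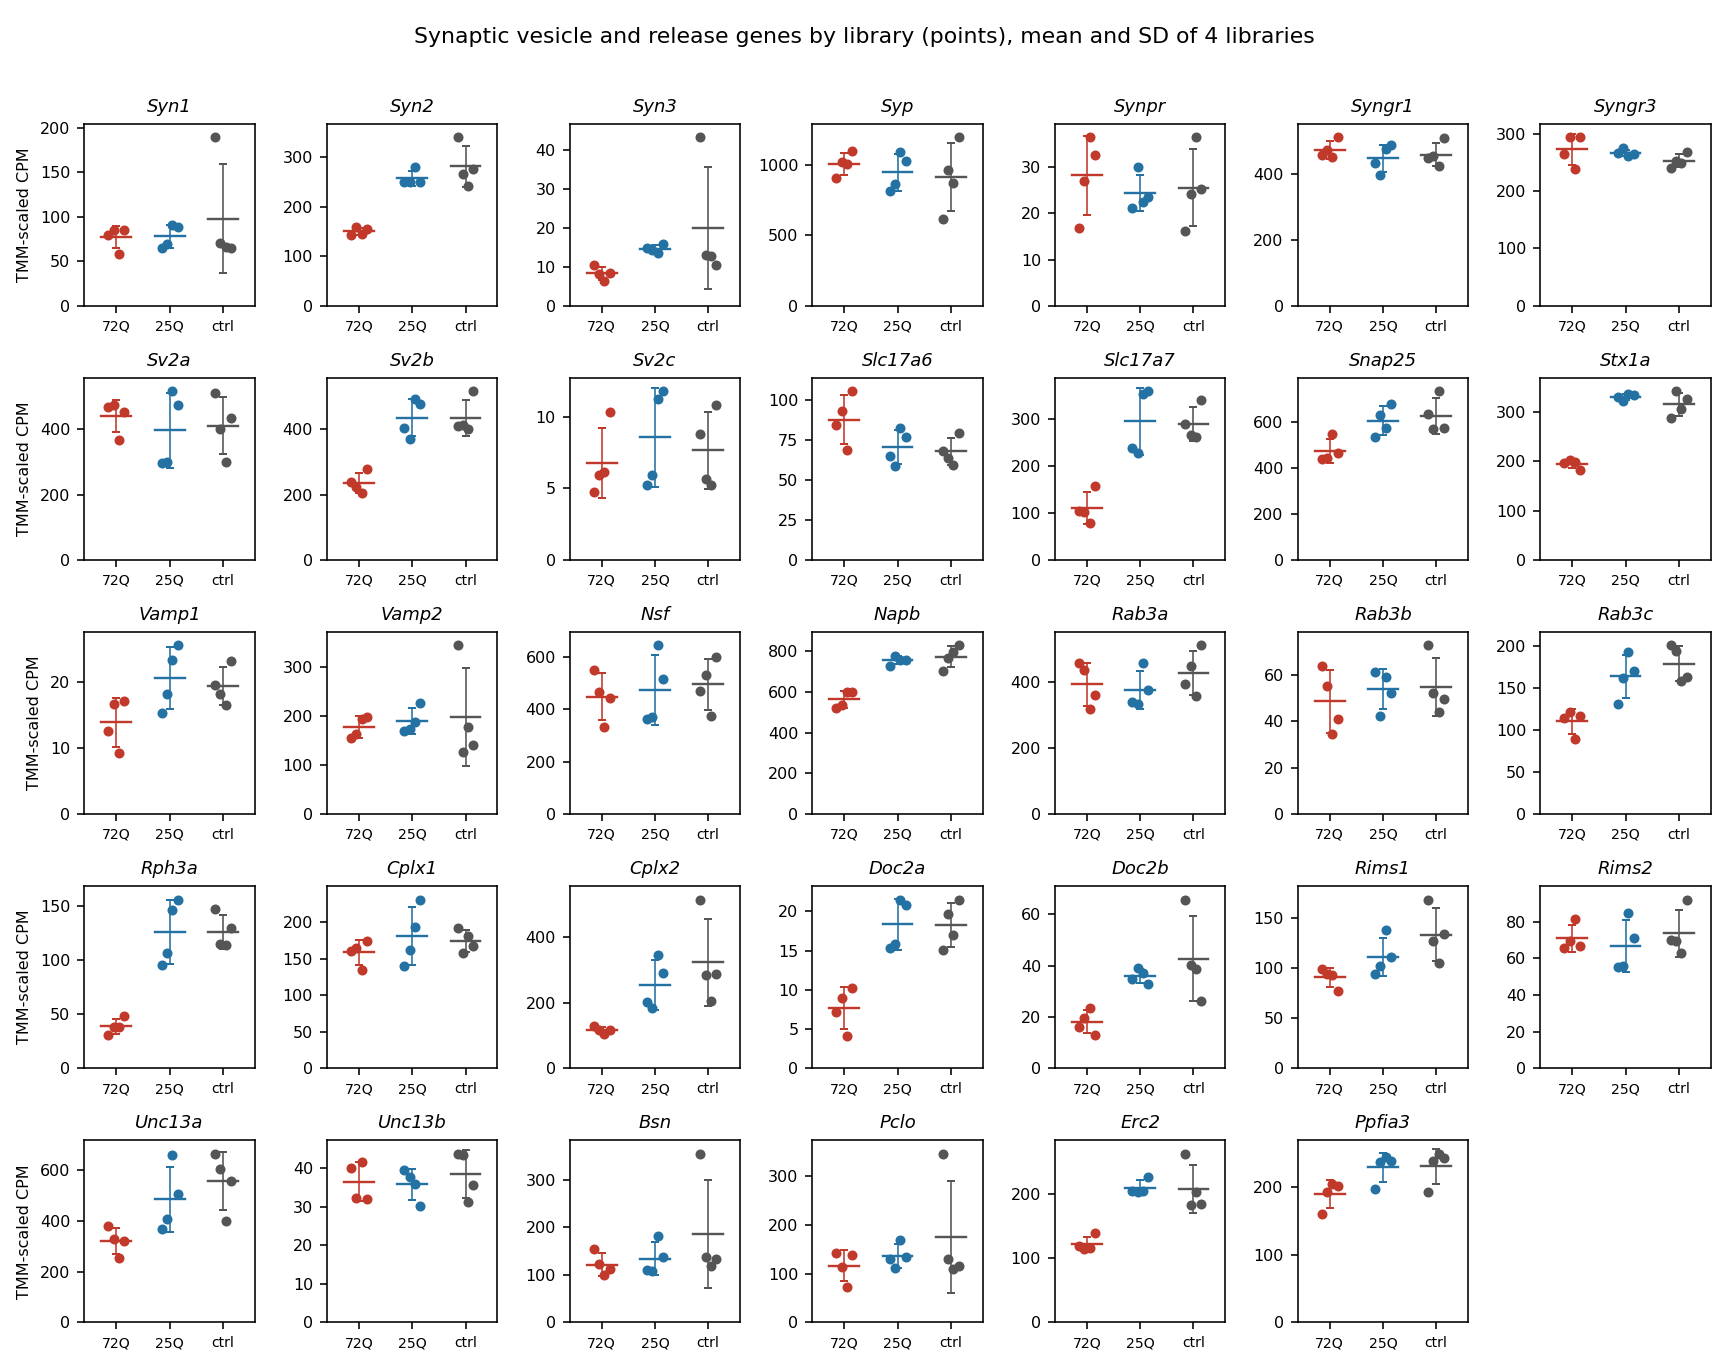
Levels of the 34 genes in each library (points, TMM-scaled CPM, y axes from 0), by group from left to right Htt-72Q, Htt-25Q and control vector, with the mean (line) and SD (bar) of 4 libraries. Rph3a, Slc17a7, Doc2a and Cplx2 sit lowest in all 4 Htt-72Q libraries, while Syp and Syngr1 overlap between groups, and control vector 1 stands above the other control libraries for Syn1, Syn3, Bsn and Pclo.

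Of the 3 synapsins, phosphoproteins that coat vesicles and hold them in a reserve pool, 2 fell against control vector and 1 against Htt-25Q. Shares of all tested genes called lower in these comparisons were 13.7% and 13.4%. Syn2 had 142, 159, 145 and 154 CPM in Htt-72Q libraries, 250.4, 249, 280.4 and 249.5 CPM in Htt-25Q libraries and 340.2, 267, 242 and 275 CPM in control vector libraries. The Htt-72Q values lay within a narrow band below every other library. Syn2 fell with log2 fold changes of -0.91 ± 0.12 (SE; adjusted p = 6.77e-05) against control vector and -0.78 ± 0.12 (adjusted p = 0.000239) against Htt-25Q. Syn3, the scarcest member per length in control vector neurons, had 10.4, 8.06, 6.22 and 8.47 CPM in Htt-72Q libraries, 14.8, 14.4, 13.5 and 15.9 CPM in Htt-25Q libraries and 43.3, 13.0, 12.8 and 10.4 CPM in control vector libraries. Control vector 1 stood far above its group, and the lowest control library overlapped the highest Htt-72Q library. The Syn3 fold change was -1.27 ± 0.37 (SE; adjusted p = 0.0232) against control vector and -0.82 ± 0.37 (SE; adjusted p = 0.134) against Htt-25Q. Without control vector 1 it was -0.54 ± 0.18 (adjusted p = 0.0475) against control vector and -0.82 ± 0.17 (adjusted p = 0.00282) against Htt-25Q. The control comparison was not called without Htt-72Q 2 (adjusted p = 0.0556), without Htt-72Q 3 (adjusted p = 0.0632) or without Htt-72Q 4 (adjusted p = 0.0525). Syn1, the third synapsin, had 79.2, 85.2, 58.6 and 84.8 CPM in Htt-72Q libraries, 65.0, 69.5, 90.6 and 88.2 CPM in Htt-25Q libraries and 189.8, 70.04, 66.6 and 64.9 CPM in control vector libraries, so that the groups overlapped apart from control vector 1. Its fold change of -0.35 ± 0.30 (SE; adjusted p = 0.432) against control vector became 0.19 ± 0.15 (adjusted p = 0.411) without that library, and against Htt-25Q it was -0.025 ± 0.30 (SE; adjusted p = 0.965). Some 14.1% of the Syn3 exon bases lie opposite exons of Timp3. As the labels do not state the use of strand, Syn3 counts are uncertain, and the share of reads concerned was not examined. Timp3 itself had a fold change of -0.01 ± 0.17 (adjusted p = 0.979) against control vector.

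Of the 7 vesicle membrane proteins, only Sv2b was called, in both comparisons, beside 13.7% and 13.4% of all tested genes called lower. Sv2b, a transporter-like glycoprotein of vesicles, had 237, 222, 204 and 278 CPM in Htt-72Q libraries, 404, 371, 491 and 477 CPM in Htt-25Q libraries and 411, 413, 399.9 and 516 CPM in control vector libraries. All 4 Htt-72Q libraries lay below all 8 others. Sv2b fell with log2 fold changes of -0.89 ± 0.14 (SE; adjusted p = 0.000301) against control vector and -0.89 ± 0.14 (adjusted p = 0.000297) against Htt-25Q. Its paralog Sv2a, the target of the antiepileptic drug levetiracetam, had 469, 475, 367 and 454 CPM in Htt-72Q libraries, 298, 299, 517 and 474 CPM in Htt-25Q libraries and 513, 400.2, 300.3 and 434 CPM in control vector libraries, with groups that overlapped and fold changes of 0.099 ± 0.20 (SE; adjusted p = 0.762) against control vector and 0.15 ± 0.20 (adjusted p = 0.631) against Htt-25Q. Synaptophysin (Syp), a tetraspan protein and the most used marker of vesicles, had 909, 1024, 1007 and 1102 CPM in Htt-72Q libraries, 814, 866, 1094 and 1027 CPM in Htt-25Q libraries and 618, 963, 877 and 1200.0 CPM in control vector libraries. Its groups overlapped, and the fold changes were 0.14 ± 0.17 (SE; adjusted p = 0.58) against control vector and 0.089 ± 0.17 (adjusted p = 0.756) against Htt-25Q. The tetraspan relatives Synpr, Syngr1 and Syngr3 had fold changes of 0.14 ± 0.25 (SE; adjusted p = 0.727), 0.046 ± 0.11 (SE; adjusted p = 0.793) and 0.11 ± 0.099 (SE; adjusted p = 0.465) against control vector. Against Htt-25Q theirs were 0.21 ± 0.25 (SE; adjusted p = 0.592), 0.079 ± 0.11 (SE; adjusted p = 0.64) and 0.033 ± 0.099 (SE; adjusted p = 0.853). Sv2c was scarce, at 6.79 ± 2.46 CPM in Htt-72Q libraries, 8.56 ± 3.44 CPM in Htt-25Q libraries and 7.65 ± 2.66 CPM in control vector libraries (SD, n = 4 each), with fold changes of -0.16 ± 0.33 (SE; adjusted p = 0.773) against control vector and -0.33 ± 0.33 (adjusted p = 0.523) against Htt-25Q. Exons of Syp share 16.8% of their bases with a gene on the other strand.

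Of the 2 vesicular glutamate transporters, 1 fell in both comparisons, beside 13.7% and 13.4% of all tested genes, and the other was not called. Slc17a7, which encodes vGluT1, had 105, 102, 78.8 and 159 CPM in Htt-72Q libraries, 239.6, 229, 354 and 360.1 CPM in Htt-25Q libraries and 291, 268, 262 and 341 CPM in control vector libraries. The highest Htt-72Q library, the fourth, was still below the lowest library of either other group. Slc17a7 fell with log2 fold changes of -1.39 ± 0.21 (SE; adjusted p = 0.000273) against control vector and -1.41 ± 0.21 (adjusted p = 0.000236) against Htt-25Q. The excitatory neuron markers that fell beside it included Neurod6 and Camk2a, with log2 fold changes of -1.50 and -1.40 against control vector, and their part in the Slc17a7 result was not tested. Slc17a6, which encodes vGluT2, had 84.4, 93.2, 68.6 and 106 CPM in Htt-72Q libraries, 64.8, 58.9, 82.4 and 77.3 CPM in Htt-25Q libraries and 68.4, 64.0, 59.7 and 79.7 CPM in control vector libraries. Most Htt-72Q libraries were above the others, while Htt-72Q 3 lay among them. The Slc17a6 fold changes were 0.37 ± 0.15 (SE; adjusted p = 0.0932) against control vector and 0.31 ± 0.15 (adjusted p = 0.163) against Htt-25Q. With the preparation as a block Slc17a6 rose against both groups, by 0.36 (adjusted p = 0.022) against control vector and by 0.44 (adjusted p = 0.0205) against Htt-25Q. Within each preparation Slc17a6 was above its control, by a log2 difference of 0.30, 0.54, 0.20 and 0.41 in preparations 22, 24, 26 and 27_1.

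**Figure D2:**
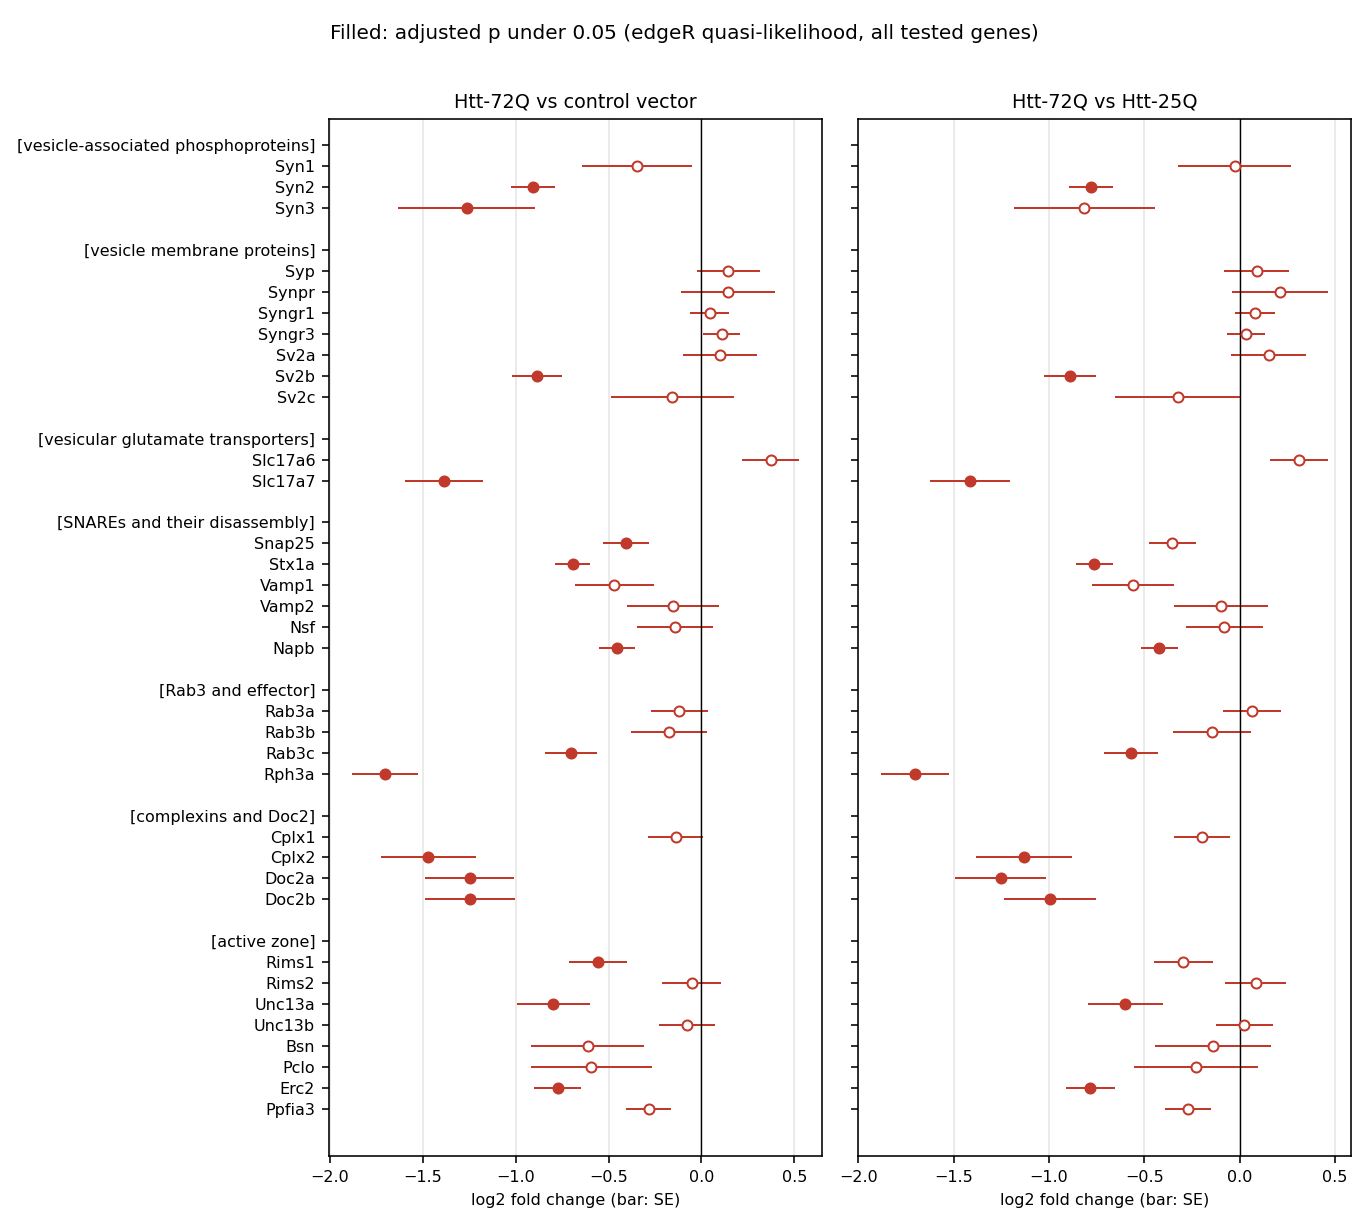
Log2 fold change (x axis, bars SE) of each of the 34 genes, grouped by role, for Htt-72Q against control vector (left) and against Htt-25Q (right). Filled points are called at an adjusted p under 0.05 and open points are not; all filled points lie below 0, and Rph3a, at -1.71 and -1.70, lies farthest from 0.

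The start regions of both transporter genes and of Rph3a are shown so that a gene that fell can be set beside its uncalled paralog and beside the member with the largest fall. The windows run from 250 bases before to 50 after the RefSeq transcription start on GRCm38.p6, 5′ to 3′ on the gene's strand, with motif matches in capitals. Slc17a7 lies at chr7:45163671-45163970 and Slc17a6 at chr7:51621580-51621879, both on the plus strand. Rph3a lies at chr5:121009489-121009788 on the minus strand.
Slc17a7: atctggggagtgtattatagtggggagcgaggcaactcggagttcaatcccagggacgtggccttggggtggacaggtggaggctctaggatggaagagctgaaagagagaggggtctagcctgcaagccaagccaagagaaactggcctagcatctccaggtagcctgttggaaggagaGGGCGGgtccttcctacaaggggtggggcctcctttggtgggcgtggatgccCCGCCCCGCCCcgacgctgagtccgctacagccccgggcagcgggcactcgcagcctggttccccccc
Slc17a6: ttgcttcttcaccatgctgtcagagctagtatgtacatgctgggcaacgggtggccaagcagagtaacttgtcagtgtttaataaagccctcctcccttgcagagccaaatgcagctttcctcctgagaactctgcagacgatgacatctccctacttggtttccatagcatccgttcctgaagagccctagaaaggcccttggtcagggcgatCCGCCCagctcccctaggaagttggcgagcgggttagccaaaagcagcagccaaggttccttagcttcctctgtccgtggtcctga
Rph3a: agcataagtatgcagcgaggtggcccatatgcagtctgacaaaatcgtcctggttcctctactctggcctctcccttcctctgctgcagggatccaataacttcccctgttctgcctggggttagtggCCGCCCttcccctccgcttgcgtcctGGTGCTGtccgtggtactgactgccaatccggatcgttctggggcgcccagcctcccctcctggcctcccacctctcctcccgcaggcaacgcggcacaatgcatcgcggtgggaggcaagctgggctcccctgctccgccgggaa
Capitals mark GGGCGG, the GC box, on either strand, and in Rph3a also CAGCACC, part of the RE1 element, here on the other strand as GGTGCTG. A pair of GC boxes overlaps in Slc17a7. Of the 34 genes, 27 have such a window. GGGCGG was in 22 of the 27, 81.5%, beside 38.2% of 27025 genes with a window, and the median GC content of the member windows was 63.7% beside 53.3%. By gene, 9 of the 11 called lower than control vector and 13 of the other 16 had it in at least 1 window. CAGCACC was in 5 of 27, or 18.5%, beside 8.14% of all genes. TGACGT, most of a cyclic AMP response element, was in 2 of 27 (7.41%, beside 8.37%), and TATAAA in 2 of 27 (7.41%, beside 15.7%). The frame of the MEF2 element, CTA and TAG with any 4 bases between, was in 0 of 27 beside 4.23%. These are matches of letters in short windows, not binding sites.

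Of the 6 SNARE and SNARE-disassembly genes, 3 fell against control vector and 2 against Htt-25Q, beside 13.7% and 13.4% of all tested genes. Stx1a, the plasma membrane SNARE syntaxin, had 196, 203, 199 and 182 CPM in Htt-72Q libraries, 330.3, 322, 336 and 336 CPM in Htt-25Q libraries and 288, 342, 305 and 326 CPM in control vector libraries. Its spread within groups was the smallest of all members in Htt-72Q and Htt-25Q, with coefficients of variation of 4.62% and 2.03%. The Htt-72Q libraries lay below all libraries of both other groups. Stx1a fell with log2 fold changes of -0.69 ± 0.095 (SE; adjusted p = 0.000128) against control vector and -0.76 ± 0.095 (adjusted p = 5.62e-05) against Htt-25Q. Napb, the neuronal SNAP that brings the ATPase Nsf to spent SNARE complexes, had 521, 538, 602 and 600.0 CPM in Htt-72Q libraries, 729.8, 779, 758 and 759.5 CPM in Htt-25Q libraries and 705, 767, 796 and 829.5 CPM in control vector libraries. The Htt-72Q libraries stood below all others. Napb fell with log2 fold changes of -0.45 ± 0.097 (SE; adjusted p = 0.0038) against control vector and -0.42 ± 0.097 (adjusted p = 0.00638) against Htt-25Q. Snap25, the other plasma membrane SNARE, had 439.7, 443, 551 and 467 CPM in Htt-72Q libraries, 537, 633, 577 and 681 CPM in Htt-25Q libraries and 637, 569, 736 and 575 CPM in control vector libraries. Htt-72Q 3 was the highest of its group and lay above the lowest Htt-25Q library, though below every control library. Snap25 had fold changes of -0.41 ± 0.12 (SE; adjusted p = 0.0273) against control vector and -0.35 ± 0.12 (adjusted p = 0.0522) against Htt-25Q, so it was called only against control vector. Leaving out Htt-72Q 1, 2 or 4 or control vector 3, or scaling by upper quartile or by library totals, left the control comparison uncalled, at an adjusted p between 0.0527 and 0.068, and with the preparation block the comparison with Htt-25Q was called, at -0.37 (adjusted p = 0.0343). Vamp2, the main vesicle SNARE of forebrain, had 155, 164, 195 and 198 CPM in Htt-72Q libraries, 170.4, 174, 189 and 228 CPM in Htt-25Q libraries and 345, 127, 178 and 142 CPM in control vector libraries. Control vector 1 was its highest library and the other 3 control libraries overlapped Htt-72Q. Vamp2 had fold changes of -0.15 ± 0.25 (SE; adjusted p = 0.699) against control vector and -0.098 ± 0.25 (adjusted p = 0.82) against Htt-25Q. Without control vector 1 the first was 0.26 ± 0.15 (adjusted p = 0.246), and within preparations it was -1.16 in preparation 22 and 0.37, 0.14 and 0.48 in preparations 24, 26 and 27_1. Vamp1, its relative, had 14.0 ± 3.73 CPM in Htt-72Q libraries, 20.6 ± 4.74 CPM in Htt-25Q libraries and 19.4 ± 2.87 CPM in control vector libraries, and fold changes of -0.47 ± 0.22 (SE; adjusted p = 0.135) against control vector and -0.56 ± 0.22 (adjusted p = 0.0775) against Htt-25Q. The block on preparation called Vamp1 lower against control vector, at -0.50 (adjusted p = 0.0218). Nsf overlapped between groups, at 448 ± 89.4 CPM in Htt-72Q libraries, 474 ± 133 CPM in Htt-25Q libraries and 495 ± 95.7 CPM in control vector libraries, with fold changes of -0.14 ± 0.20 (SE; adjusted p = 0.661) against control vector and -0.08 ± 0.20 (adjusted p = 0.821) against Htt-25Q.

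Among the Rab3 GTPases, which mark docking vesicles, and their effector, 2 of 4 fell in both comparisons, beside 13.7% and 13.4% of all tested genes. Rph3a, rabphilin, binds Rab3 and membranes and had 31.0, 37.9, 37.8 and 48.3 CPM in Htt-72Q libraries, 95.9, 107, 147 and 156 CPM in Htt-25Q libraries and 147, 115, 114 and 129.9 CPM in control vector libraries. No Htt-72Q library reached the lowest of the other 8. Rph3a fell with log2 fold changes of -1.71 ± 0.18 (SE; adjusted p = 1.24e-05) against control vector and -1.70 ± 0.18 (adjusted p = 1.23e-05) against Htt-25Q. Rab3c had 114, 122, 88.9 and 116 CPM in Htt-72Q libraries, 131, 162, 193 and 170.0 CPM in Htt-25Q libraries and 201, 194, 159 and 163 CPM in control vector libraries. Its Htt-72Q libraries were the lowest of the 12. Rab3c fell with fold changes of -0.70 ± 0.14 (SE; adjusted p = 0.00261) against control vector and -0.57 ± 0.14 (adjusted p = 0.00987) against Htt-25Q. Rab3a, the commonest Rab3 of brain, and Rab3b had overlapping groups. Rab3a had fold changes of -0.12 ± 0.15 (SE; adjusted p = 0.616) against control vector and 0.065 ± 0.15 (adjusted p = 0.806) against Htt-25Q. For Rab3b they were -0.17 ± 0.21 (SE; adjusted p = 0.585) against control vector and -0.15 ± 0.20 (adjusted p = 0.655) against Htt-25Q.

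The complexins bind assembled SNAREs and the Doc2 proteins are calcium sensors with C2 domains. In both comparisons 3 of these 4 genes fell, beside 13.7% and 13.4% of all tested genes. Cplx2 had 128, 116, 105 and 116 CPM in Htt-72Q libraries, 203, 182, 345 and 289 CPM in Htt-25Q libraries and 514, 283, 204 and 288 CPM in control vector libraries. Control vector 1 was its highest library, but all 4 Htt-72Q libraries lay below every other. Cplx2 fell with log2 fold changes of -1.47 ± 0.25 (SE; adjusted p = 0.000816) against control vector and -1.13 ± 0.25 (adjusted p = 0.00489) against Htt-25Q. Without control vector 1 the first of these was -1.15 ± 0.20 (adjusted p = 0.00101). Cplx1 had 161, 164, 135 and 174 CPM in Htt-72Q libraries, 139.9, 162, 194 and 231 CPM in Htt-25Q libraries and 192, 158, 181 and 167 CPM in control vector libraries, overlapping in all groups, and fold changes of -0.14 ± 0.15 (SE; adjusted p = 0.536) against control vector and -0.20 ± 0.15 (adjusted p = 0.377) against Htt-25Q. Doc2a was scarce, with 7.16, 9.01, 4.15 and 10.3 CPM in Htt-72Q libraries, 15.3, 15.8, 21.5 and 20.8 CPM in Htt-25Q libraries and 15.1, 19.7, 17.0 and 21.5 CPM in control vector libraries. Its Htt-72Q libraries were the lowest, and Doc2a fell with fold changes of -1.248 ± 0.24 (SE; adjusted p = 0.0018) against control vector and -1.253 ± 0.24 (adjusted p = 0.00172) against Htt-25Q. As 33.9% of its exon bases lie opposite exons of Ino80e, the counts of Doc2a are uncertain, and Ino80e had a fold change of 0.13 ± 0.17 (adjusted p = 0.612) against control vector. Doc2b had 16.1, 19.5, 23.5 and 13.1 CPM in Htt-72Q libraries, 34.8, 39.0, 37.2 and 32.7 CPM in Htt-25Q libraries and 65.8, 40.3, 38.5 and 26.1 CPM in control vector libraries. The lowest control library, the fourth, was above all Htt-72Q libraries. Doc2b fell with fold changes of -1.247 ± 0.24 (SE; adjusted p = 0.00193) against control vector and -0.997 ± 0.24 (adjusted p = 0.00841) against Htt-25Q, and at -0.96 ± 0.20 (adjusted p = 0.00339) against control vector without control vector 1.

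At the active zone, where vesicles dock, 3 of 8 genes fell against control vector and 2 of 8 against Htt-25Q. The shares of all tested genes called lower were 13.7% and 13.4%. Erc2, a scaffold that binds Rims1, had 118, 115, 116 and 139 CPM in Htt-72Q libraries, 204, 203, 205 and 227 CPM in Htt-25Q libraries and 262, 183, 203 and 184 CPM in control vector libraries. Its Htt-72Q libraries lay below all others, and Erc2 fell with log2 fold changes of -0.77 ± 0.13 (SE; adjusted p = 0.000569) against control vector and -0.78 ± 0.13 (adjusted p = 0.000527) against Htt-25Q. Unc13a, the main priming factor Munc13-1 of excitatory terminals, had 380.0, 326, 253 and 319.5 CPM in Htt-72Q libraries, 369, 407, 657 and 504 CPM in Htt-25Q libraries and 664, 603, 399 and 556 CPM in control vector libraries. Htt-72Q lay below every control library but overlapped Htt-25Q, where Htt-72Q 1 was above Htt-25Q 1. Unc13a fell with fold changes of -0.80 ± 0.20 (SE; adjusted p = 0.00867) against control vector and -0.60 ± 0.20 (adjusted p = 0.0394) against Htt-25Q. With the preparation block the Htt-25Q comparison was -0.44 (adjusted p = 0.105), and it missed the threshold without Htt-72Q 2, 3 or 4, Htt-25Q 3 or 4, or control vector 2. Rims1, a scaffold that ties vesicles to calcium channels, had 98.9, 93.7, 92.9 and 77.5 CPM in Htt-72Q libraries, 94.3, 102, 138 and 111 CPM in Htt-25Q libraries and 168, 127, 105 and 134 CPM in control vector libraries. Its groups did not overlap against control vector. Rims1 had fold changes of -0.56 ± 0.16 (SE; adjusted p = 0.0183) against control vector and -0.30 ± 0.16 (adjusted p = 0.198) against Htt-25Q, and without Htt-72Q 4 the first was -0.48 (adjusted p = 0.0652) and without both control vector 1 and Htt-72Q 3 it was -0.44 (adjusted p = 0.0615). Rims2 and Unc13b are paralogs of these genes. Rims2 had fold changes of -0.053 ± 0.16 (SE; adjusted p = 0.847) against control vector and 0.083 ± 0.16 (adjusted p = 0.758) against Htt-25Q. For Unc13b they were -0.079 ± 0.15 (SE; adjusted p = 0.75) against control vector and 0.025 ± 0.15 (adjusted p = 0.929) against Htt-25Q.

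For Bsn and Pclo, the giant scaffolds bassoon and piccolo, 1 library set the fold change. Bsn had 154, 122, 98.9 and 112 CPM in Htt-72Q libraries, 110.4, 107, 182 and 138 CPM in Htt-25Q libraries and 355, 138, 118 and 133 CPM in control vector libraries. Pclo had 142, 114, 71.9 and 138 CPM in Htt-72Q libraries, 129.5, 113, 169.8 and 134 CPM in Htt-25Q libraries and 347, 130.0, 109.6 and 116 CPM in control vector libraries. In both genes control vector 1 was more than 2 times the next highest library of its group. Their fold changes against control vector were -0.61 ± 0.30 (SE; adjusted p = 0.167) and -0.59 ± 0.33 (SE; adjusted p = 0.215), and without control vector 1 they were -0.09 ± 0.19 (adjusted p = 0.767) and -0.03 ± 0.20 (adjusted p = 0.947). Against Htt-25Q the fold changes were -0.14 ± 0.30 (SE; adjusted p = 0.784) for Bsn and -0.23 ± 0.33 (SE; adjusted p = 0.665) for Pclo. Exons on the other strand cover 11.4% of the Bsn and 4.82% of the Pclo exon bases. Ppfia3, a liprin that organises active zones, had 161, 193, 205 and 202 CPM in Htt-72Q libraries, 197, 238, 244 and 239 CPM in Htt-25Q libraries and 193, 239, 249.7 and 244 CPM in control vector libraries. Htt-72Q overlapped both groups. Ppfia3 had fold changes of -0.28 ± 0.12 (SE; adjusted p = 0.112) against control vector and -0.27 ± 0.12 (adjusted p = 0.133) against Htt-25Q, and was called against control vector with the preparation block (-0.28, adjusted p = 0.0384).

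**Figure D3:**
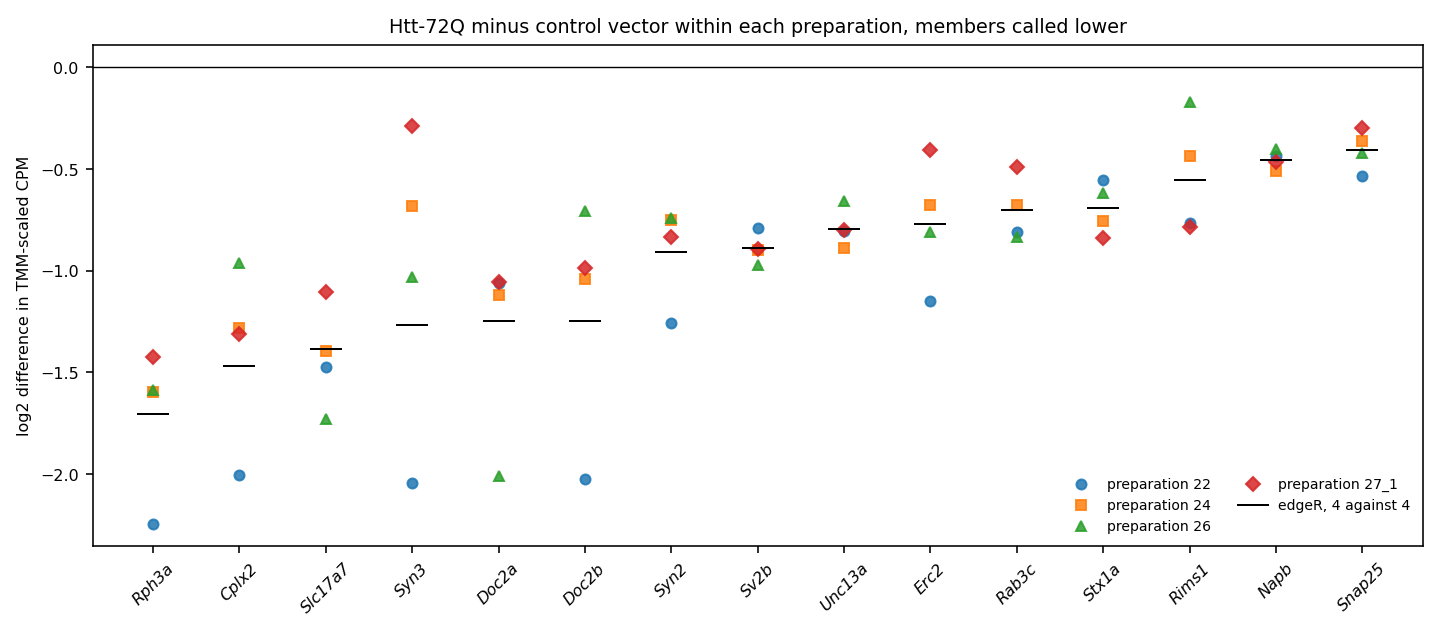
Log2 difference in TMM-scaled CPM between Htt-72Q and control vector within each preparation, for the 15 genes called lower, beside the edgeR estimate over 4 libraries a group. All points lie below 0, as they must for every gene shown but Syn3, the only one whose groups overlap. Syn3 and Doc2b spread most, with preparation 22 lowest for both.

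The description of each library begins with a preparation number, whose meaning the labels do not state. Against control vector all 15 called genes were below 0 in each of the 4 preparations that hold both groups (22, 24, 26 and 27_1). For all of them but Syn3 every Htt-72Q library lay below every control library, so these signs were fixed in advance and add no support. Against Htt-25Q, 11, 12 and 12 of the 12 called genes were below 0 in preparations 22, 24 and 27_1, the exception being Unc13a in preparation 22. Only Unc13a of the 12 overlapped between these groups, so the other signs were likewise fixed. The log2 difference of Rph3a was -2.24, -1.60, -1.59 and -1.43 in the 4 preparations. Medians over the 34 genes in the same preparations were -0.70, -0.25, -0.38 and -0.35.

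Levels per length were compared with the deposited RPKM. In Htt-72Q neurons Syp stood at 201 ± 15.4 RPKM (SD, n = 4), Rab3a at 183 ± 33.4, Syngr3 at 136 ± 15.1, Syngr1 at 102 ± 6.33 and Sv2a at 98.6 ± 12.9. In control vector neurons Rab3a stood at 188 ± 31.3 RPKM (SD, n = 4), Syp at 172 ± 46.3, Syngr3 at 119 ± 6.48, Stx1a at 116 ± 10.2, Napb at 107 ± 7.62 and Slc17a7 at 96.6 ± 12.4. At the other end were Unc13b at 2.79 ± 0.472, Vamp1 at 2.17 ± 0.334, Sv2c at 1.68 ± 0.588 and Syn3 at 1.58 ± 1.24 RPKM. Between neighbours in the control vector order the means differed by more than the larger SD only from Syp to Syngr3, Ppfia3 to Erc2, Doc2a to Synpr and Unc13b to Vamp1. In Htt-72Q neurons Slc17a7 had 39.1 ± 11.99 RPKM and ranked 13 of 34, against 6 of 34 in control vector neurons, and Rph3a had 9.71 ± 1.76 RPKM and ranked 25, against 19. The genes lower in Htt-72Q than control had a median of 43.1 RPKM in control vector neurons and the others 28.9 RPKM, and median exon lengths of 5703 and 4808 bases.

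**Figure D4:**
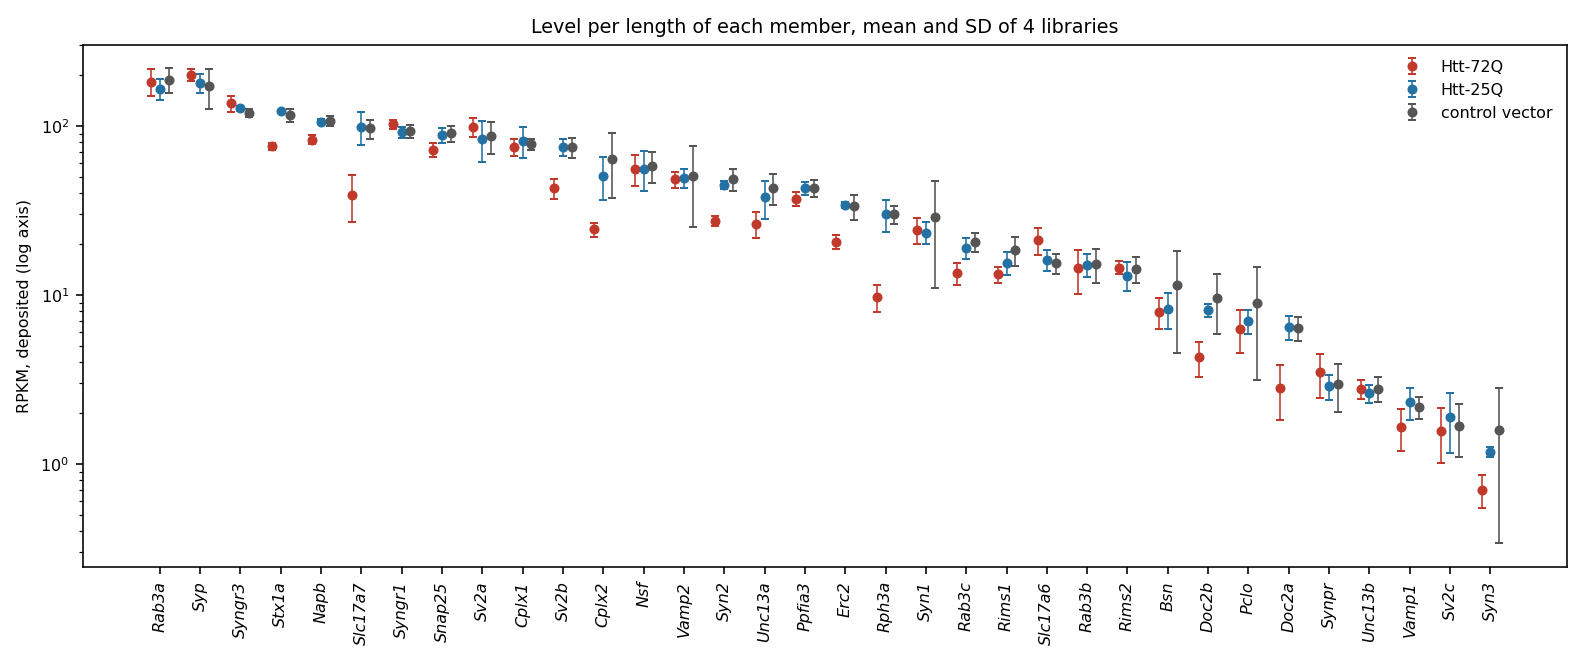
Deposited RPKM of each of the 34 genes (log y axis), mean and SD of 4 libraries, ordered by the mean in control vector; Htt-72Q, Htt-25Q and control vector points lie side by side for each gene. Slc17a7 lies at 39.1 RPKM in Htt-72Q, against 96.6 RPKM in control vector, while Rab3a, Syp and Syngr3 stay near the top in every group.

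Paralogs were also set against each other within each library, as 8 ratios of counts that need no scaling factor. The ratio of Slc17a7 to Slc17a6 was 1.24, 1.09, 1.15 and 1.502 in Htt-72Q libraries, 3.70, 3.88, 4.30 and 4.66 in Htt-25Q libraries and 4.25, 4.18, 4.38 and 4.28 in control vector libraries. The Htt-72Q libraries overlapped neither other group, and the geometric mean in Htt-72Q was 0.289 of that in control vector. Sv2b to Sv2a was 0.506, 0.467, 0.556 and 0.613 in Htt-72Q libraries, 1.36, 1.24, 0.950 and 1.01 in Htt-25Q libraries and 0.801, 1.03, 1.33 and 1.19 in control vector libraries. Again Htt-72Q overlapped neither other group. Cplx2 to Cplx1 was 0.797, 0.709, 0.775 and 0.668 in Htt-72Q libraries, 1.449, 1.12, 1.78 and 1.25 in Htt-25Q libraries and 2.68, 1.79, 1.13 and 1.73 in control vector libraries. Here too Htt-72Q overlapped neither other group. For each of these 3 ratios, in both comparisons, the exact two-sided permutation test of 4 against 4 libraries gave p = 0.0286, the smallest it can give, and 0.0763 after adjustment over 24 tests. None of the 24 adjusted values passed 0.05. The same p and adjusted p held for 3 more comparisons without overlap. Unc13b to Unc13a was higher in Htt-72Q than in control vector by 0.71 on the log2 scale, Rims2 to Rims1 was higher than in Htt-25Q by 0.39, and Syn2 to Syn1 had a difference of -0.75 from Htt-25Q. In the other Htt-72Q comparison each of these 3 ratios overlapped, with differences of 0.60 from Htt-25Q (p = 0.1429), 0.50 from control vector (p = 0.0571) and -0.70 from control vector (p = 0.1429) by the same exact test. The ratios of Vamp1 to Vamp2 and Doc2b to Doc2a overlapped in every comparison. Slc17a7, Sv2b and Cplx2 already lay below both other groups on their own, while Slc17a6, Sv2a and Cplx1 were not called. All pairs were drawn from members chosen with earlier results known. The p-values of the ratios are therefore no independent support for the falls of these genes.

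**Figure D5:**
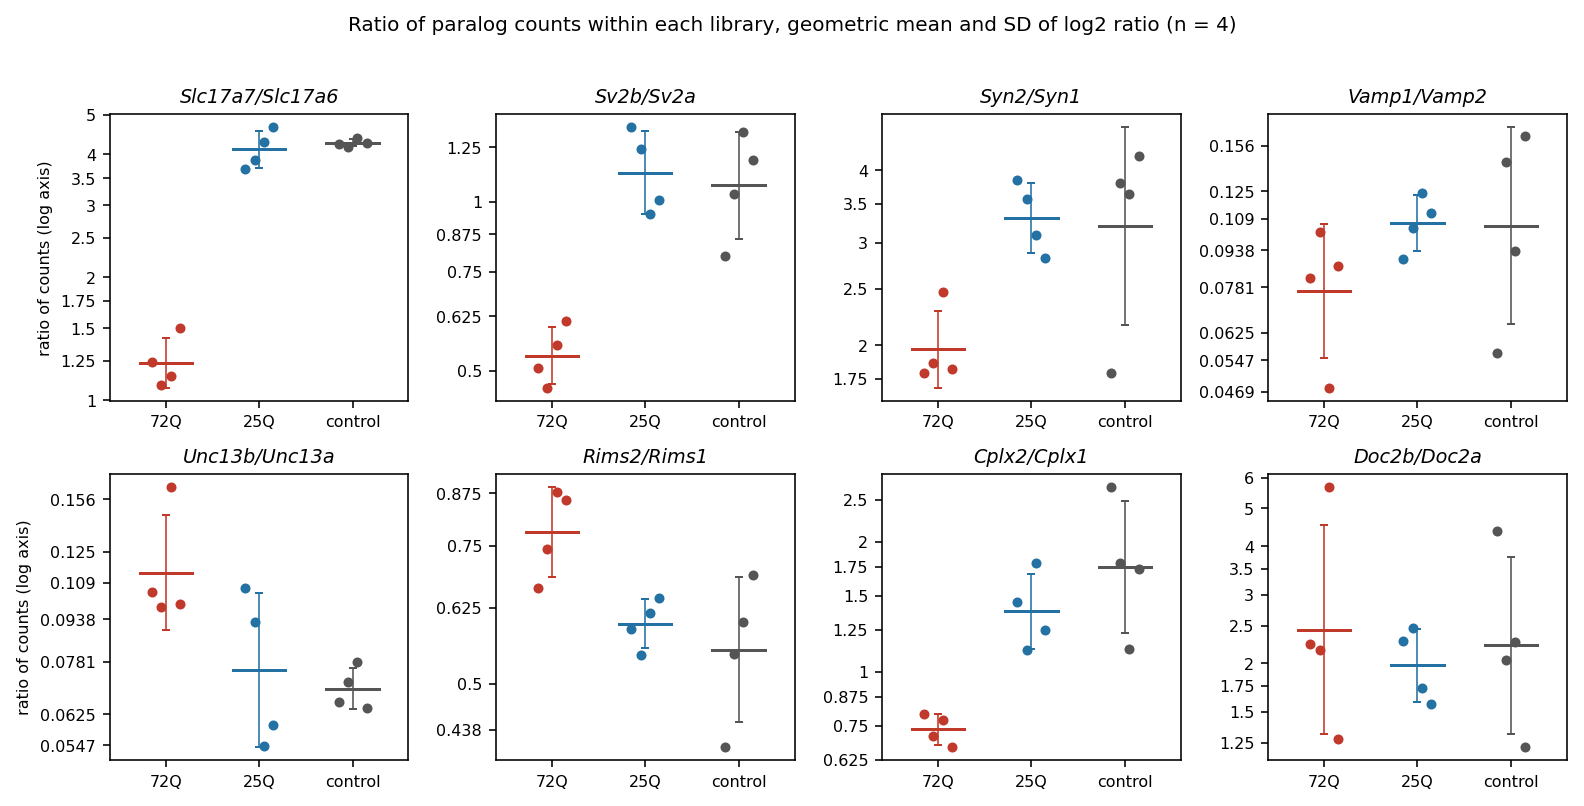
Ratio of the counts of 2 paralogs in each library (points, log y axis) for Htt-72Q, Htt-25Q and control vector, with the geometric mean (line) and the SD of the log2 ratio (bar), n = 4. Slc17a7/Slc17a6 lies between 1.09 and 1.502 in Htt-72Q, while all 8 other libraries lie at 3.695 or above.

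Of 58 other presynaptic genes, 57 were tested, and against control vector 11 were lower, 3 higher and 43 not called, with a median of -0.12. For all tested genes the shares were 13.7% lower and 9.44% higher, with a median of 0.03. Against Htt-25Q 12 were lower, 4 higher and 41 not called, with a median of -0.10, beside 13.4% lower, 9.07% higher and 0.034 for all tested genes. In Htt-25Q against control vector 0 of 57 were called, as were 0 of all tested genes. Cadps2, which primes dense-core vesicles, had 12.5 to 19.97 CPM in Htt-72Q libraries, 48.0 to 60.8 CPM in Htt-25Q libraries and 49.5 to 61.5 CPM in control vector libraries. Cadps2 fell by 1.71 ± 0.16 on the log2 scale (SE; adjusted p = 3.89e-06) against control vector and by 1.71 ± 0.16 (adjusted p = 3.73e-06) against Htt-25Q. The changes of the genes that follow are on the same scale. The endocytic adaptor Pacsin1 fell by 0.75 ± 0.13 (adjusted p = 0.000917), Stxbp5l, which binds syntaxin, by 0.88 ± 0.17 (adjusted p = 0.00179), the vesicle amino acid transporter Slc6a17 by 1.05 ± 0.20 (adjusted p = 0.00185), Lin7a by 0.84 ± 0.17 (adjusted p = 0.00268) and the liprin Ppfia2 by 0.46 ± 0.12 (adjusted p = 0.0109). In the other direction, Rab3gap1, a regulator of Rab3, rose by 0.63 ± 0.12 (adjusted p = 0.00156), Atp6v1a, a subunit of the proton pump that acidifies vesicles, by 0.52 ± 0.12 (adjusted p = 0.00582) and the clathrin light chain Cltb by 0.63 ± 0.15 (adjusted p = 0.00892). With the preparation as a block 23 of these genes were called against control vector. Against Htt-25Q the same 6 genes had the smallest p among those lower, and Rab3gap1, Atp6v1a and Cltb rose by 0.55 (adjusted p = 0.00371), 0.49 (adjusted p = 0.00862) and 0.45 (adjusted p = 0.0464). Unc13c, the third Munc13 gene, rose against Htt-25Q by 1.23 ± 0.30 (adjusted p = 0.00833), and stood at 0.67 ± 0.29 (adjusted p = 0.115) against control vector.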

How the data were processed

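Total RNA, depleted of ribosomal RNA, was sequenced as 1 library per sample, in 2 lanes that were merged per the labels. The authors deposited, for 12 libraries, whole read counts per gene with CPM and RPKM beside them. These CPM and RPKM values, deposited with the counts, follow from the counts, the library totals and the exon lengths. GRCm38, STAR 2.0.4b, featureCounts 1.45 and Subread are listed in the submitters' processing notes; strandedness, multi-mapping and the annotation release were not found there. Samples were grouped by title.

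Counts were tested in R 4.3.3 with edgeR 4.0.16, using its quasi-likelihood test on all 12 libraries, TMM scaling, a filterByExpr minimum of 10 and Benjamini-Hochberg adjustment over 14707 genes. The script was tested on simulated counts. The text names all 34 members, the 4 genes called higher and 6 called lower with the smallest p in the list of other presynaptic genes, and a few markers. Members and lists were chosen with earlier results of these data known. Paralog ratios were compared by exact permutation, whose smallest p for 4 against 4 libraries is 0.0286. DESeq2 1.42.0, limma 3.58.1, sva 3.50.0, other scalings, filters and thresholds, blocks and left-out libraries served as alternatives. A library class term, and leaving out control vector 1 with Htt-72Q 3, were added after seeing the data. The class split the libraries at the largest gap in Gapdh level, which ran from 9.18 to 48.0 CPM. The high class held Htt-72Q 1, 2 and 4, Htt-25Q 3 and control vector 2 and 4, so it was uneven over the groups. All 10 pairs of libraries sharing a preparation number in their descriptions correlated above 0.1 in their deviations from the group means. Their r lay between 0.11 and 0.50, while Htt-25Q 2 and control vector 3, with different preparation numbers, reached 0.46. The main fit had no block, and preparation was a block only among the alternatives. The 2 libraries most alike differed by 9.00 times the sampling variance, so none was a repeat deposit.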

Additional observations from a re-analysis of the deposited data

Results flagged for a closer look

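In 9 of 102 groups of 4 libraries, 1 library stood apart from the other 3 by Dixon's test at its 95% critical value, and chance flags about 1 in 20 groups. Of the 9, 4 were high values in control vector 1. Syn1 was at 189.8 CPM there, while the next highest control library had 70.04 CPM. For Syn3 the level was 43.33 CPM beside at most 13.0 CPM. Bsn stood at 354.9 CPM beside at most 137.9 CPM, and Pclo at 346.5 CPM beside at most 130.0 CPM. Htt-25Q 3 had 280.4 CPM of Syn2, above 250.4 CPM. Control vector 4 had 516.2 CPM of Sv2b, above 413.4 CPM. Erc2 was at 138.5 CPM in Htt-72Q 4, above 118.0 CPM, and at 226.6 CPM in Htt-25Q 4, above 204.7 CPM. Ppfia3 was low in Htt-25Q 1, at 196.9 CPM, while the lowest of the other 3 had 237.8 CPM.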

How the results depend on the processing

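The genes Cplx2, Doc2a, Doc2b, Erc2, Napb, Rab3c, Rph3a, Slc17a7, Stx1a, Sv2b and Syn2 were called lower in both Htt-72Q comparisons under all 25 alternatives fitted at the threshold of 0.05. The count of lower members ran from 12 to 17 against control vector and from 11 to 15 against Htt-25Q, and no called member changed direction, while the uncalled Syn1 and Vamp2 turned positive against control vector without control vector 1. Against control vector 1 member, Slc17a6, was called higher with an adjusted p under 0.10, upper-quartile scaling, library totals, the preparation block, 1 surrogate variable or without both control vector 1 and Htt-72Q 3, and leaving out libraries gave 0 to 1. Against Htt-25Q it was 1 with the preparation block or without both libraries. Paired by title number, 16 members were called against control vector and 15 against Htt-25Q; paired by preparation, 18 and 13. Other presynaptic genes called against control vector numbered 23 with the preparation block, and against Htt-25Q 10 to 19 when a library was left out. Syn3 was lost against control vector with limma voom (adjusted p = 0.0586), with the library class term (adjusted p = 0.0666), in the fit of 2 groups only (adjusted p = 0.0546) and without Htt-72Q 2, 3 or 4. Without both control vector 1 and Htt-72Q 3, Syn3 (adjusted p = 0.0714), Rims1 (adjusted p = 0.0615) and Unc13a (adjusted p = 0.0548) were all lost. Under library totals the median of all genes was 0.113 against control vector, beside 0.03 under TMM. The median of the members against Htt-25Q was -0.17 with the preparation block or without Htt-25Q 3, beside -0.28; against control vector it was -0.27 without control vector 1 or with 1 surrogate variable and -0.24 without both libraries, beside -0.43; causes were not tested.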
